A study of Mus musculus with 9 samples.

Results

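Lcn2 encodes lipocalin 2, also called neutrophil gelatinase-associated lipocalin, a small secreted protein that is measured in urine and blood as a marker of kidney injury. The gene was 1 of 22180 tested in mouse kidney, and it was represented by 1 row of the value table, the single row whose annotation carries this symbol alone. The value table holds log2 signals of whole-transcript arrays hybridised with total RNA of kidney. A first group of 3 arrays came from mice given norUDCA (norursodeoxycholic acid, whose side chain is shorter than that of other bile acids) for 5 days before their common bile duct was tied off for 3 weeks. It is called norUDCA-fed CBDL here (arrays norUDCA_CBDL_172, norUDCA_CBDL_175 and norUDCA_CBDL_179). A second group of 3 had the same 3 weeks of ligation without that feeding and is called CBDL (arrays CBDL_164, CBDL_165 and CBDL_170). The third group of 3 had a sham operation 3 weeks earlier (arrays sham_158, sham_159 and sham_160). The labels give no strain, sex, age or genotype, do not say whether feeding went on after the operation, and include no sham group fed norUDCA. Nor do they say whether the 3 arrays of a group stand for separate animals, so the p-values cover the spread among these arrays and no more. Values of a gene are given in the order in which the arrays are named here.

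Lipocalin 2 binds siderophores, the small iron carriers that bacteria release, and so withholds iron from them. It is stored in neutrophil granules and is also made by epithelial cells, among them those of injured kidney tubules, where transcription of the gene is switched on through NF-kB with its cofactor I kappa B zeta, through C/EBP factors and through STAT3. Filtered lipocalin 2 is taken up again in the proximal tubule by megalin. Tying off the bile duct makes bile acids accumulate in blood and pass into urine, and the kidney injury that follows in mice is known as cholemic nephropathy.

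In the RefSeq annotation of GRCm38.p6, Lcn2 (GeneID 16819) lies on chromosome 2 from 32384637 to 32387739 on the minus strand and is 3103 bases long. The 250 bases upstream of its start, chr2:32387740-32387989 on the minus strand, are shown because transcripts of factors that act on this promoter were measured. The arrays give the amount of Lcn2 transcript in whole kidney and do not measure the output of the promoter. The capitals mark the 1 motif match found.
Lcn2 upstream: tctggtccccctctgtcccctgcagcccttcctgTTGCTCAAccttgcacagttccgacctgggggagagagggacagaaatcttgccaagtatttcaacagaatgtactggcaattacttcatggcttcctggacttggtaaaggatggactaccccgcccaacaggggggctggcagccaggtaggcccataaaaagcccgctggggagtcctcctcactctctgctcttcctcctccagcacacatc

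The window searched ran from 250 bases before the start to 50 after it, 300 in all, on both strands. The match TTGCTCAA is to the C/EBP motif TTNNGNAA, read on the strand opposite to the gene, and spans bases -216 to -209 from the start. This short motif is common, since 40.7% of the 32851 promoter windows of the same table hold it. The NF-kB consensus (in 8.46% of windows), the STAT motif TTCNNNGAA (in 8.30%) and the AP-1 motif TGANTCA (in 7.81%) had 0 matches in the Lcn2 window, which says only that these letters are not in it.

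Lcn2 was high in every ligated kidney and lower in those fed norUDCA. Its log2 signal was 11.19, 10.98 and 11.19 in norUDCA-fed CBDL, 11.92, 12.44 and 11.90 in CBDL and 7.48, 7.79 and 7.03 in sham. The 3 groups did not overlap, with norUDCA-fed CBDL between the others and nearer to CBDL. Group means were 11.12 ± 0.12 in norUDCA-fed CBDL, 12.09 ± 0.31 in CBDL and 7.43 ± 0.38 in sham (SD, n = 3 each). On the linear scale these are mean signals of 2235, 4422 and 177, in the same order of groups. The brightest Lcn2 value lay below the highest signal of any row, which was 13.64 to 13.73 on the 9 arrays, and array medians of 5.7 to 5.79 differed little. Over all 1680 ways of dividing the 9 arrays into 3 groups of 3, an exact permutation test on the spread between groups gave p = 0.00357, the smallest p that this design allows.

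**Figure D1:**
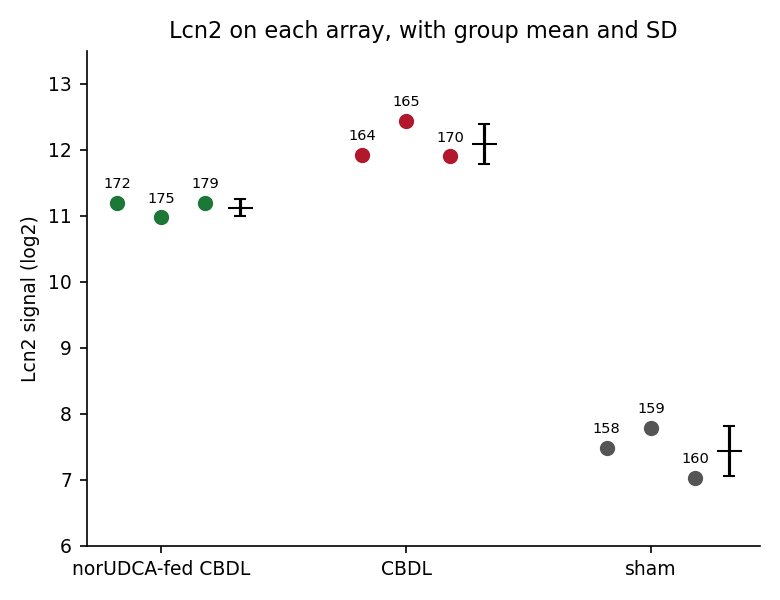
Log2 signal of Lcn2 (vertical axis) on each of the 9 arrays, marked with its number, for norUDCA-fed CBDL, CBDL and sham from left to right. Horizontal and vertical bars are the group mean and SD over 3 arrays. The norUDCA-fed CBDL arrays lie between 10.98 and 11.19, below every CBDL array (11.90 to 12.44) and above every sham array (7.03 to 7.79).

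After ligation Lcn2 rose by 4.65 on the log2 scale in CBDL against sham (SE 0.20, 95% interval 4.20 to 5.11, adjusted p = 6.27e-06). That is a 25.2-fold higher signal (18.4 to 34.5), and only 1 of the 22180 genes had a larger increase. The lowest CBDL array stood 4.11 above the highest sham array. Lack of overlap was common, since 7889 of the 22180 genes had none between CBDL and sham. The adjusted p is that of limma over all genes with Benjamini-Hochberg adjustment, and the words rose, fell and called are used of genes for which it was under 0.05. In this comparison 21.8% of genes were called, 10.3% as higher and 11.5% as lower, and the median difference over all genes was -0.06. Leaving out each array in turn gave differences of 4.45 to 4.83, all called.

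The comparison of norUDCA-fed CBDL with CBDL asks whether ligated kidneys differed with and without that feeding. Without a sham group fed norUDCA, an altered response to ligation cannot be told apart from an effect of feeding alone. Lcn2 fell by 0.97 in norUDCA-fed CBDL (SE 0.20, 95% interval -1.42 to -0.51, adjusted p = 0.0232), which is 0.512 times the CBDL signal (0.374 to 0.701). The highest norUDCA-fed array lay 0.71 below the lowest CBDL array. These groups did not overlap for 5368 of the 22180 genes. In this comparison 6.80% of genes were called, 3.61% as higher and 3.20% as lower, around a median difference of -0.00. Ordered by the size of the decrease Lcn2 was 177th of the 709 genes that fell.

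The call of that decrease did not hold in each repeat of the fit. Its direction did, but leaving out arrays could not have reversed it because the groups did not overlap. Leaving out each array in turn gave differences of -1.06 to -0.79 with adjusted p of 0.0193 to 0.0974. The call was lost without CBDL_164 (adjusted p = 0.0594), CBDL_165 (0.0723), norUDCA_CBDL_172 (0.0662), norUDCA_CBDL_175 (0.0974) or norUDCA_CBDL_179 (0.0645), each of which leaves 2 arrays in a group. It was also lost when variances were not moderated across genes (adjusted p = 0.109). CBDL_165, the array with the highest Lcn2, and sham_159, the highest of its group, had the lowest estimated array weights of the 9 (0.445 and 0.336). Without both of them the difference was -0.79 (adjusted p = 0.0409).

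**Figure D2:**
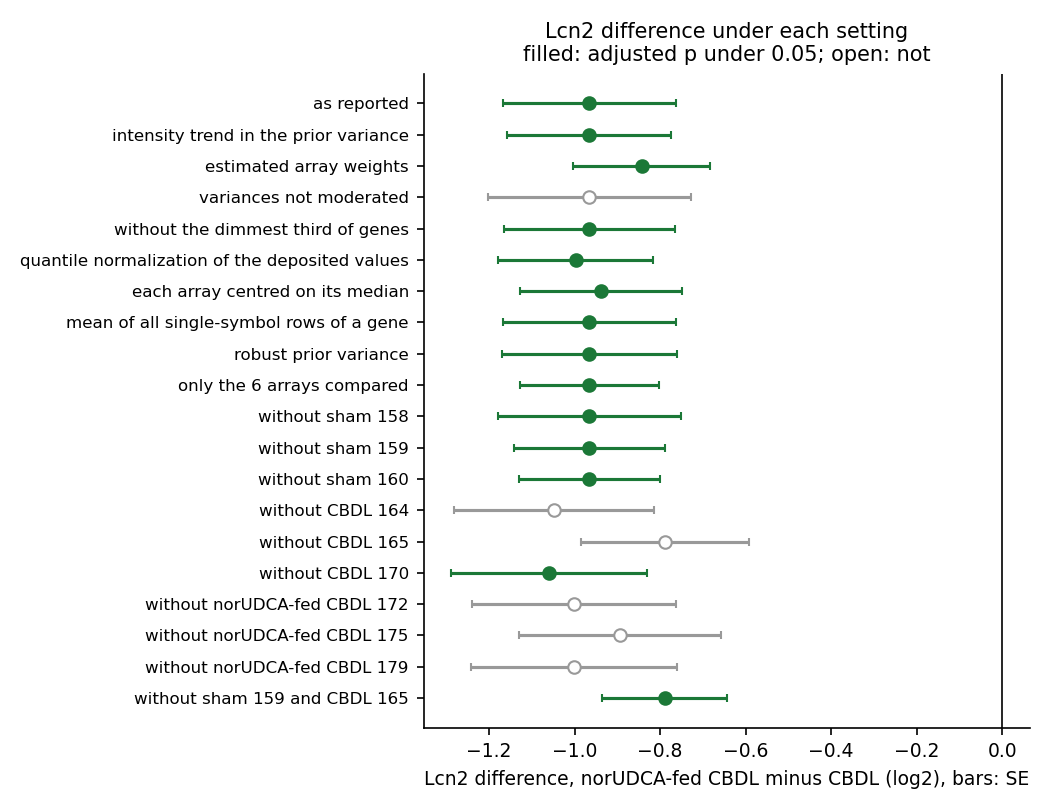
Difference in Lcn2 between norUDCA-fed CBDL and CBDL (horizontal axis, log2, with bars of 1 SE) as reported and under each other setting of the fit. Filled points have an adjusted p under 0.05; the differences run from -1.06 to -0.79, and 6 points are open, 5 of them with 1 array left out and 1 with variances not moderated.

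Against sham, the kidneys of norUDCA-fed CBDL mice still had far more Lcn2 transcript. Lcn2 rose by 3.69 (SE 0.20, 95% interval 3.23 to 4.14, adjusted p = 6.14e-05), a 12.9-fold higher signal (9.41 to 17.7). Of all genes 3.18% were called, 1.82% as higher and 1.37% as lower, and Lcn2 had the 4th largest increase. No overlap between norUDCA-fed CBDL and sham was seen for 4988 of the 22180 genes. The norUDCA-fed arrays were at least 3.19 above every sham array, and the difference stayed between 3.49 and 3.86 and called when any 1 array was left out. The comparisons share arrays and are not independent of each other. For any 1 pair of groups an exact permutation test of 3 arrays against 3 gave p = 0.1, the smallest it can give. In whole kidney, more cells that express a gene and more RNA per cell cannot be told apart.

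None of the 5 genes for proteins that take up lipocalin 2, partner it or make its iron carrier was called in the direction of Lcn2 in more than 1 comparison, and 3 of them fell after ligation. The share of all genes that fell after ligation was 11.5%. Slc22a17, a cell surface receptor for lipocalin 2, had log2 signals of 8.38, 8.25 and 8.16 in norUDCA-fed CBDL, 8.04, 8.34 and 8.03 in CBDL, and 8.66, 8.90 and 8.71 in sham. Both ligated groups lay below sham and overlapped each other. It fell by 0.62 in CBDL against sham (SE 0.12, adjusted p = 0.00488), and the difference of norUDCA-fed CBDL from CBDL was 0.13 (95% interval -0.14 to 0.40, adjusted p = 0.667).

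Lrp2, which encodes megalin, had 12.55, 12.61 and 12.54 in norUDCA-fed CBDL, 11.57, 11.12 and 12.07 in CBDL, and 12.75, 12.77 and 12.83 in sham. The CBDL arrays were the lowest and the most spread. Lrp2 fell by 1.2 in CBDL against sham (SE 0.19, adjusted p = 0.00168) and rose by 0.98 in norUDCA-fed CBDL against CBDL (SE 0.19, adjusted p = 0.0181), a call lost without CBDL_164 (0.0688), norUDCA_CBDL_172 (0.0625), norUDCA_CBDL_175 (0.0761) or norUDCA_CBDL_179 (0.0585).

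Bdh2, an enzyme described as making a mammalian iron carrier that lipocalin 2 binds, had 9.94, 9.69 and 9.83 in norUDCA-fed CBDL, 8.97, 8.73 and 9.27 in CBDL, and 10.43, 10.31 and 10.33 in sham. These 3 groups did not overlap either, in the order opposite to that of Lcn2. Bdh2 fell by 1.36 in CBDL against sham (SE 0.14, adjusted p = 0.000133) and rose by 0.83 in norUDCA-fed CBDL against CBDL (SE 0.14, adjusted p = 0.0115; 0.0510 without CBDL_164). Mmp9, the gelatinase that lipocalin 2 was first found bound to in human neutrophils, rose by 1.27 in CBDL against sham (SE 0.32, adjusted p = 0.0182). CBDL_170, at 6.03, lay within the norUDCA-fed range of 6.0 to 6.09 for Mmp9, and the call was lost without CBDL_164 (0.0689), CBDL_165 (0.0511), sham_159 (0.0575) or sham_160 (0.0583). Mc4r, a melanocortin receptor through which lipocalin 2 from bone acts in the mouse brain, was called in none of the 3 comparisons (adjusted p of 0.0585 to 0.910).

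Proteins of the lipocalin family share a cup-shaped fold that holds small hydrophobic molecules, and Apod, Apom and C8g were its only measured members beside Lcn2 to be called in any comparison. Of 24 listed, Lcn2 among them, 22 were measured, and 2 rose and 2 fell in CBDL against sham around a median difference of -0.07. In norUDCA-fed CBDL against CBDL 2 rose and 2 fell, and in norUDCA-fed CBDL against sham 2 rose and 1 fell. Without Lcn2 that is 3 of 21 in CBDL against sham, where 21.8% of all genes were called, 3 of 21 in norUDCA-fed CBDL against CBDL, where 6.80% were, and 2 of 21 in norUDCA-fed CBDL against sham, where 3.18% were. Beside Lcn2 the riser was Apod, a lipid-binding apolipoprotein, which had 6.71, 6.25 and 6.83 in norUDCA-fed CBDL, 8.31, 7.57 and 8.51 in CBDL, and 5.71, 5.07 and 5.30 in sham. Its groups did not overlap and stood in the same order as those of Lcn2.

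Apod rose by 2.77 in CBDL against sham (SE 0.26, adjusted p = 9.22e-05) and fell by 1.54 in norUDCA-fed CBDL against CBDL (SE 0.26, adjusted p = 0.0116). The second call was lost without CBDL_164 (0.0523) or norUDCA_CBDL_175 (0.0565). The call of Apod in norUDCA-fed CBDL against sham (1.24, adjusted p = 0.0342) was lost with 5 arrays left out in turn (0.0562 to 0.151; sham_159, sham_160, CBDL_164, norUDCA_CBDL_172 and norUDCA_CBDL_179). The other pair went the opposite way. Apom, which carries sphingosine 1-phosphate in plasma, fell by 1.68 in CBDL against sham and rose by 1.27 in norUDCA-fed CBDL against CBDL (SE 0.19, adjusted p of 0.000248 and 0.00883). C8g, the gamma chain of complement component C8, fell by 1.86 in CBDL against sham and by 1.18 in norUDCA-fed CBDL against sham (SE 0.16, adjusted p of 6.04e-05 and 0.00598). Its increase of 0.69 in norUDCA-fed CBDL against CBDL (adjusted p = 0.0312) was not called without CBDL_164, CBDL_165 or any 1 norUDCA-fed array (0.0808 to 0.113). The measured genes named Lcn3 to Lcn12 differed by -0.40 to 0.31 in the 3 comparisons and were not called.

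Among cytokines known to induce Lcn2, Lif and Tnf were called in both comparisons with CBDL. Of 11 measured, 3 rose in CBDL against sham and 2 fell in norUDCA-fed CBDL against CBDL. The shares of all genes that did so were 10.3% and 3.20%. Lif, a cytokine of the interleukin 6 family, had 5.84, 5.73 and 5.86 in norUDCA-fed CBDL, 6.55, 6.95 and 6.51 in CBDL, and 5.26, 5.68 and 5.22 in sham. Its 3 groups did not overlap, although sham_159 came close to the norUDCA-fed arrays. Lif rose by 1.29 in CBDL against sham (SE 0.16, adjusted p = 0.000351) and fell by 0.86 in norUDCA-fed CBDL against CBDL (SE 0.16, adjusted p = 0.0140; 0.0636 without norUDCA_CBDL_175).

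Tnf, the macrophage cytokine that activates NF-kB, rose by 0.96 in CBDL against sham and fell by 0.44 in norUDCA-fed CBDL against CBDL (SE 0.10, adjusted p of 0.000192 and 0.0363). The second call was lost with 6 of the 9 arrays left out in turn (sham_158, CBDL_164, CBDL_170, norUDCA_CBDL_172, norUDCA_CBDL_175 and norUDCA_CBDL_179), where adjusted p was 0.0576 to 0.117. Il1b rose by 0.74 in CBDL against sham (SE 0.20, adjusted p = 0.0244), with adjusted p of 0.0559 to 0.0867 without sham_158, sham_160, CBDL_164 or CBDL_170. Il6 (0.27), Il17a (-0.39) and Il22 (-0.11), whose products act on epithelial cells, were not called in CBDL against sham (adjusted p of 0.0940 to 0.590).

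Of 14 measured receptors for these cytokines, 8 rose and 1 fell in CBDL against sham around a median of 0.78, and 5 fell and 1 rose in norUDCA-fed CBDL against CBDL. Among all genes 10.3% rose and 11.5% fell in the first comparison, and 3.20% fell and 3.61% rose in the second. Osmr, the receptor chain for oncostatin M that signals to STAT3, had 9.43, 9.43 and 9.44 in norUDCA-fed CBDL, 10.53, 10.45 and 10.28 in CBDL, and 8.10, 8.55 and 7.83 in sham. Its groups stood apart in the order of Lcn2. Osmr rose by 2.26 in CBDL against sham (SE 0.16, adjusted p = 3.51e-05) and fell by 0.98 in norUDCA-fed CBDL against CBDL (SE 0.16, adjusted p = 0.0115; 0.0518 without CBDL_164 and 0.0536 without norUDCA_CBDL_175). Il1r1, the signalling receptor of interleukin 1, rose by 1.46 and fell by 0.78 in the same comparisons (SE 0.12, adjusted p of 5.26e-05 and 0.00883). The 1 that fell was Il22ra1, the epithelial chain of the interleukin 22 receptor, by 1.05 in CBDL against sham (SE 0.14, adjusted p = 0.000504). It was also the 1 that rose in norUDCA-fed CBDL against CBDL (0.64, adjusted p = 0.0238), a call lost without CBDL_164, CBDL_165 or any 1 norUDCA-fed array (0.0542 to 0.0994). The 5 receptors not called after ligation differed by -0.36 (Il17ra) to 0.26 (Il6st). Of the 5 that fell under norUDCA, 3 kept their call without sham_158 or sham_160, 2 without CBDL_165, norUDCA_CBDL_172 or norUDCA_CBDL_179, and 1 without CBDL_164 or norUDCA_CBDL_175.

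The transcription factors that act on the Lcn2 promoter were mostly raised after ligation. Of 10 measured, 9 rose and 1 (Esr1, an estrogen receptor) fell in CBDL against sham, around a median of 0.82. Among all genes 10.3% rose and 11.5% fell. The call of Esr1 was lost without sham_160 (0.0517) or CBDL_165 (0.0555). That of Nfkb2, which rose, was lost without sham_158, sham_160, CBDL_164 or CBDL_165 (0.0808 to 0.0924). In norUDCA-fed CBDL against CBDL 4 fell and 0 rose, beside 3.20% and 3.61% of all genes. In norUDCA-fed CBDL against sham 4 rose and 1 fell, beside 1.82% and 1.37%. The 1 that fell was again Esr1 (-0.68, adjusted p = 0.0379), a call lost with 6 of the 9 arrays left out in turn (each sham array, CBDL_164, norUDCA_CBDL_172 and norUDCA_CBDL_179, adjusted p of 0.0557 to 0.133). Nfkbiz, which encodes I kappa B zeta, had 7.58, 7.47 and 7.67 in norUDCA-fed CBDL, 8.32, 8.65 and 8.30 in CBDL, and 6.49, 6.76 and 6.6 in sham. As for Lcn2, the groups did not overlap and norUDCA-fed CBDL lay between the others.

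Nfkbiz rose by 1.81 in CBDL against sham (SE 0.13, adjusted p = 2.98e-05), fell by 0.85 in norUDCA-fed CBDL against CBDL (adjusted p = 0.00828) and rose by 0.96 in norUDCA-fed CBDL against sham (adjusted p = 0.00549). None of these calls was lost when any 1 array was left out. Klf5, a Kruppel-like factor of epithelia, changed by 1.84, -0.86 and 0.98 in the same 3 comparisons (SE 0.14, adjusted p of 4.44e-05, 0.0115 and 0.00839). Its call between the ligated groups was lost without norUDCA_CBDL_175 (0.0565), and that of norUDCA-fed CBDL against sham without norUDCA_CBDL_179 (0.0507).

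Stat3 was not called between the ligated groups, and whether it differs in this from Nfkbiz and Klf5 was not tested. It had 11.09, 10.89 and 11.16 in norUDCA-fed CBDL, 11.35, 11.18 and 11.32 in CBDL, and 10.22, 10.22 and 10.15 in sham. Both ligated groups stood well above sham and nearly met. Stat3 rose by 1.09 in CBDL against sham (SE 0.10, adjusted p = 9.98e-05) and by 0.86 in norUDCA-fed CBDL against sham (adjusted p = 0.00337), and its difference between the ligated groups was -0.23 (95% interval -0.46 to -0.00, adjusted p = 0.256). Cebpd rose by 1.22 and Cebpb by 0.92 in CBDL against sham (SE 0.15, adjusted p of 0.000436 and 0.00196), and neither was called between the ligated groups (-0.38 and -0.55, adjusted p of 0.199 and 0.0645). Of the 4 factors that fell in norUDCA-fed CBDL against CBDL (Nfkbiz, Klf5, Rela and Relb), 2 kept their call without CBDL_164, CBDL_165, norUDCA_CBDL_172 or norUDCA_CBDL_179 and 1 without norUDCA_CBDL_175, and of the 4 above sham 2 kept it without norUDCA_CBDL_179. Their transcripts say nothing of the activity of these proteins.

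**Figure D3:**
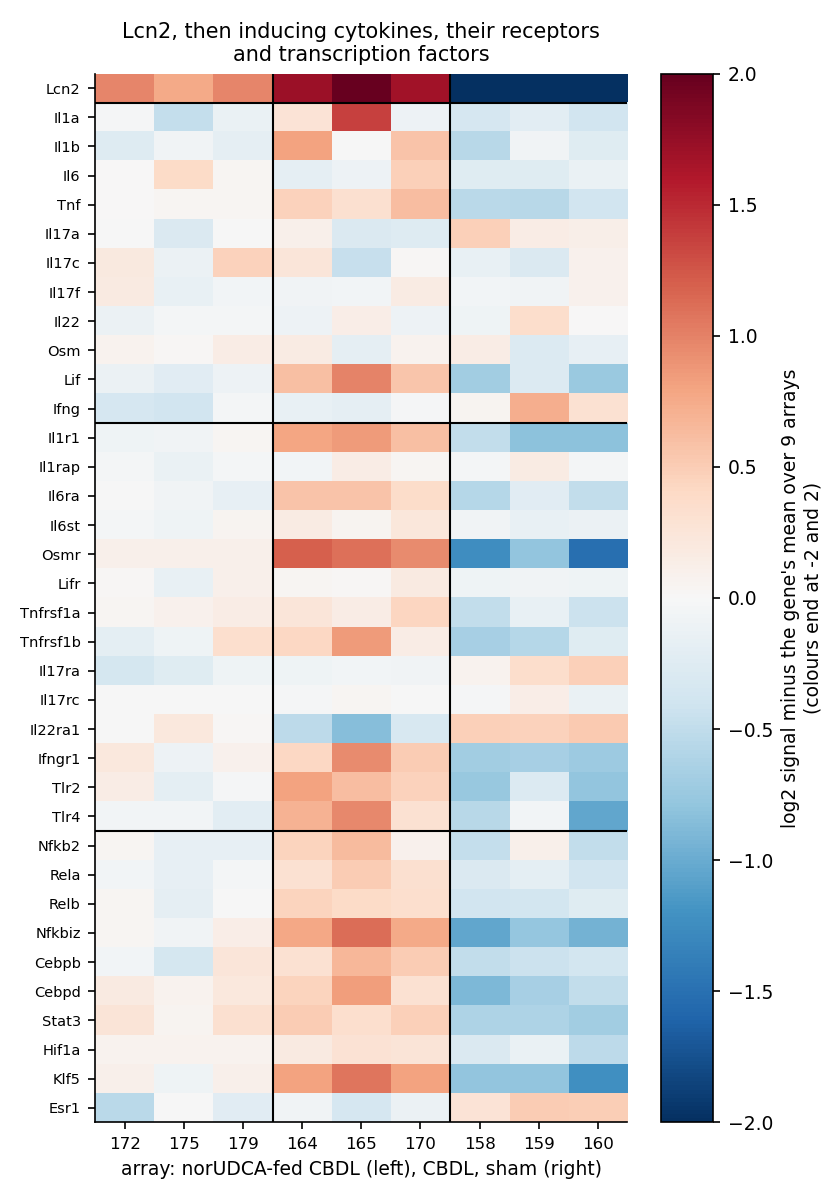
Log2 signal minus the gene's own mean over the 9 arrays (colour, ending at -2 and 2), for Lcn2 in the top row and, below it, the measured inducing cytokines, their receptors and transcription factors that act on Lcn2. Columns are arrays, with norUDCA-fed CBDL at the left, CBDL in the middle and sham at the right; Osmr, Nfkbiz and Klf5 have the strongest red in CBDL and blue in sham below Lcn2.

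Most listed acute phase genes and other targets of NF-kB or STAT3 rose after ligation. Of 19 measured, 14 rose and 0 fell in CBDL against sham (median 1.71), 10 fell and 0 rose in norUDCA-fed CBDL against CBDL (median -0.80), and 9 rose and 0 fell in norUDCA-fed CBDL against sham (median 0.99). Among all genes 10.3% rose in the first comparison, 3.20% fell in the second and 1.82% rose in the third. Serpina3n, an inhibitor of serine proteases, had 9.51, 9.30 and 9.71 in norUDCA-fed CBDL, 11.21, 12.27 and 11.17 in CBDL, and 6.35, 5.12 and 5.74 in sham. The groups did not overlap, and CBDL_165 was again the highest array. Serpina3n was the 1 gene with a larger increase than Lcn2 after ligation, at 5.81 (SE 0.34, adjusted p = 1.85e-05), and it fell by 2.04 in norUDCA-fed CBDL against CBDL (adjusted p = 0.0116; 0.0581 without norUDCA_CBDL_175).

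Hp, which encodes the haemoglobin scavenger haptoglobin, had 5.85, 6.27 and 7.10 in norUDCA-fed CBDL, 8.53, 9.16 and 8.06 in CBDL, and 6.02, 5.7 and 5.5 in sham. Unlike Lcn2, its norUDCA-fed arrays overlapped the sham arrays. Hp rose by 2.85 in CBDL against sham (SE 0.34, adjusted p = 0.00031), fell by 2.18 in norUDCA-fed CBDL against CBDL (adjusted p = 0.00931), and differed by 0.67 between norUDCA-fed CBDL and sham (adjusted p = 0.363).

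Cp, the copper-containing ferroxidase ceruloplasmin, changed by 2.53 in CBDL against sham and by -0.91 in norUDCA-fed CBDL against CBDL (SE 0.13, adjusted p of 1.41e-05 and 0.00815). Lbp, which binds bacterial lipopolysaccharide, changed by 2.10 and -1.11 (SE 0.16, adjusted p of 4.23e-05 and 0.00815), and Steap4, a metalloreductase induced by inflammation, by 1.26 and -0.80 (SE 0.12, adjusted p of 8.66e-05 and 0.00815). Socs3, a feedback inhibitor of STAT3, and Cxcl1, a chemokine that draws neutrophils, rose by 1.71 and 2.08 in CBDL against sham (adjusted p of 0.000121 and 8.41e-05). Both fell in norUDCA-fed CBDL against CBDL, Socs3 by 0.97 (adjusted p = 0.0130; 0.0502 without CBDL_164 and 0.0598 without norUDCA_CBDL_175) and Cxcl1 by 0.89 (adjusted p = 0.0246, and 0.0568 to 0.0982 without CBDL_164, CBDL_165 or any 1 norUDCA-fed array). Saa3, an acute phase gene of mice, was not called after ligation (1.35, SE 0.60, adjusted p = 0.145): CBDL_165 had 8.09 and the other 8 arrays 4.75 to 5.46. Of the 10 that fell under norUDCA, 6 kept their call without CBDL_164, 4 without norUDCA_CBDL_175 and 7 to 10 without any other array. Of the 9 higher than sham, 5 kept their call without sham_160, 4 without norUDCA_CBDL_172 and 3 without norUDCA_CBDL_179. In CBDL against sham, Fgb lost its call without CBDL_165, CBDL_170 or any 1 sham array (adjusted p of 0.0570 to 0.0843). The fibrinogen genes Fga, Fgb and Fgg averaged 9.06, 8.18 and 9.78 in norUDCA-fed CBDL and 8.74, 7.96 and 9.26 in CBDL. Unlike that of Lcn2, these means were not lower under norUDCA, and these differences were not called.

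Of the 18 genes of this list with a promoter window, 13 held the C/EBP motif and 4 each held the NF-kB consensus, the STAT motif and the AP-1 motif. The shares over all windows were 40.7%, 8.46%, 8.30% and 7.81% in that order. Besides acute phase genes the list holds genes that were put on it as targets of NF-kB or STAT3. Lcn2 holds only the first of these. No test was made of these matches.

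Lcn2 was one of 21 measured markers of kidney injury, 16 of which rose and 0 fell in CBDL against sham (median 1.40). In norUDCA-fed CBDL against CBDL 13 fell and 0 rose (median -0.77), and in norUDCA-fed CBDL against sham 9 rose and 0 fell (median 0.82). Lcn2 is in each of these counts. Without it, 15 of 20 rose in CBDL against sham (median 1.39) and 8 of 20 in norUDCA-fed CBDL against sham (median 0.72). Among all genes 10.3% rose in the first comparison, 3.20% fell in the second and 1.82% rose in the third. Cd44, a hyaluronan receptor of regenerating tubules, changed by 2.66, -1.17 and 1.49 in these 3 comparisons (SE 0.13, adjusted p of 9.39e-06, 0.00655 and 0.000826). Sox9, a transcription factor of tubule repair, changed by 3.22, -1.52 and 1.69 (SE 0.22, adjusted p of 2.98e-05, 0.00815 and 0.00549). Neither gene lost a call when any 1 array was left out.

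Vcam1, an adhesion molecule also found on injured tubules that fail to repair, rose by 2.41 in CBDL against sham (SE 0.16, adjusted p = 2.52e-05). It fell by 0.78 in norUDCA-fed CBDL against CBDL (adjusted p = 0.0192), with adjusted p of 0.0546 to 0.0748 without CBDL_164 or any 1 norUDCA-fed array. Krt20, a keratin of superficial epithelia, had 7.04, 6.95 and 7.41 in norUDCA-fed CBDL, 7.98, 8.14 and 8.12 in CBDL, and 4.16, 4.76 and 4.61 in sham. The groups did not overlap and stood in the order of Lcn2, with differences of 3.57 in CBDL against sham, -0.95 in norUDCA-fed CBDL against CBDL and 2.62 in norUDCA-fed CBDL against sham (SE 0.17, adjusted p of 8.65e-06, 0.0140 and 0.000203). The middle call was lost without CBDL_164 (0.0509), norUDCA_CBDL_172 (0.0568) or norUDCA_CBDL_175 (0.0648).

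Havcr1, which encodes the tubular injury marker KIM-1, had 9.04, 9.36 and 9.40 in norUDCA-fed CBDL, 8.77, 8.66 and 9.95 in CBDL, and 5.64, 4.23 and 5.83 in sham. The norUDCA-fed arrays lay inside the CBDL range, where those of Lcn2 lay below it. The difference of norUDCA-fed CBDL from CBDL was 0.14 for Havcr1 (SE 0.43, 95% interval -0.82 to 1.1, adjusted p = 0.921), beside -0.97 (-1.42 to -0.51) for Lcn2, and whether the genes differ in this was not tested. The 13 injury markers that fell in norUDCA-fed CBDL include Lcn2. Of these 13, 5 kept their call without CBDL_164, 6 without CBDL_165 and 4 without norUDCA_CBDL_172. Without norUDCA_CBDL_175 3 kept it, and 6 kept it without norUDCA_CBDL_179. In CBDL against sham, Cst3 lost its call without sham_158, sham_160, CBDL_164, CBDL_170 or any 1 norUDCA-fed array (adjusted p of 0.0524 to 0.121).

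Genes of iron handling, the process lipocalin 2 takes part in, were less uniform. Of 13 measured, 2 rose and 3 fell in CBDL against sham around a median of -0.08, and 3 rose and 1 fell in norUDCA-fed CBDL against CBDL. Among all genes 10.3% rose and 11.5% fell in the first comparison, and 3.61% rose and 3.20% fell in the second. Tfrc, the transferrin receptor, fell by 0.86 in CBDL against sham (SE 0.17, adjusted p = 0.00461) and rose by 1.03 in norUDCA-fed CBDL against CBDL (adjusted p = 0.0107; 0.0502 without CBDL_164). Slc11a2, an importer of ferrous iron, and Aco1, an iron-sensing regulator of translation, fell by 0.71 and 0.85 in CBDL against sham (adjusted p of 0.00112 and 0.000722). Slc40a1, the iron exporter ferroportin, rose by 0.64 and Heph, a membrane ferroxidase, by 0.83 (adjusted p of 0.00581 and 0.00109). Hmox1, which breaks down haem, was not called in any of the 3 comparisons (-0.05 in CBDL against sham, SE 0.29, adjusted p = 0.931). Without CBDL_164, 0 of the 3 that rose under norUDCA kept their call in limma, and 1 kept it without CBDL_165, norUDCA_CBDL_175 or norUDCA_CBDL_179; Heph, the 1 that fell, was not called without CBDL_164, CBDL_165 or any 1 norUDCA-fed array (adjusted p of 0.0573 to 0.102).

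Because neutrophils store lipocalin 2 and their precursors transcribe the gene, their markers are given beside it. The neutrophil granule gene Ltf, encoding lactoferrin, had 5.05, 4.92 and 5.05 in norUDCA-fed CBDL, 5.31, 5.05 and 5.01 in CBDL, and 5.05, 5.05 and 5.05 in sham. All 3 groups overlapped at a low signal. Ltf had the identical value of 5.0526 on all sham arrays and on CBDL_165, norUDCA_CBDL_172 and norUDCA_CBDL_179. The granule gene Ngp likewise had 4.209 on all CBDL arrays. Rows with such ties say little about a difference between groups. Of 17 markers measured, 3 rose and 0 fell in CBDL against sham (median 0.14), and 0 were called by limma in either comparison of norUDCA-fed CBDL, where 1 (against CBDL) and 2 (against sham) had an unadjusted p under 0.05. Among all genes 10.3% rose and 11.5% fell in CBDL against sham. For norUDCA-fed CBDL 6.80% were called against CBDL and 3.18% against sham. The granule genes Ltf (0.07), Camp (-0.25), Ngp (-0.16), Mpo (-0.07) and Elane (-0.29) and the surface marker Ly6g (0.14) were not called in CBDL against sham (adjusted p of 0.239 to 0.818), nor were S100a8 and S100a9 (0.29 and 0.07), subunits of calprotectin.

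The neutrophil markers called in CBDL against sham were Csf3r, the receptor of granulocyte colony-stimulating factor (0.89, adjusted p = 0.00374), Retnlg, a resistin-like gene of neutrophils (0.89, adjusted p = 0.0234) and Cxcr2, a chemokine receptor (0.48, adjusted p = 0.0389). Of these 3, 1 kept its call without sham_158, 1 without sham_160, 1 without CBDL_165, 2 without sham_159 and 2 without norUDCA_CBDL_172. The summed linear signal of the 17 was 499.9 to 579.7 in norUDCA-fed CBDL, 545 to 670.4 in CBDL and 494 to 499.99 in sham. The group mean was under 5.2 log2, the upper bound of the dimmest of 3 equal shares of all genes, for 12 of them in norUDCA-fed CBDL, 13 in CBDL and 13 in sham. How much of the Lcn2 signal came from neutrophils was not tested.

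Macrophage and monocyte markers moved with Lcn2. Of 15 measured, 14 rose in CBDL against sham (median 2.18, the exception being Ly6c2 at 0.08), 12 fell in norUDCA-fed CBDL against CBDL (median -1.02) and 10 rose in norUDCA-fed CBDL against sham (median 1.0). The shares of all genes that did so were 10.3%, 3.20% and 1.82%. Ctss, a lysosomal protease of macrophages, had 9.40, 9.40 and 9.45 in norUDCA-fed CBDL, 11.41, 11.16 and 10.52 in CBDL, and 8.06, 8.28 and 8.09 in sham. It stood in the order of Lcn2 with no overlap, and changed by 2.88, -1.61 and 1.27 in the 3 comparisons (SE 0.19, adjusted p of 2.82e-05, 0.00655 and 0.00945; the last was 0.0535 without norUDCA_CBDL_179). The summed signal of the 15 was 4298 to 4715 in norUDCA-fed CBDL, 7039 to 13331 in CBDL and 2245 to 2947 in sham. Of the 14 that rose after ligation, Csf1r lost its call without sham_158, sham_160, CBDL_164 or CBDL_165 (adjusted p of 0.0808 to 0.0874). Cd163 lost that call without sham_158, sham_159 or CBDL_164 (0.0537 to 0.0960). Of the 12 that fell, 3 kept their call without CBDL_164, 7 without CBDL_165, 5 without norUDCA_CBDL_172, 3 without norUDCA_CBDL_175 and 7 without norUDCA_CBDL_179. Of the 10 above sham, 6 kept their call without sham_160, 6 without norUDCA_CBDL_172, 5 without norUDCA_CBDL_175 and 3 without norUDCA_CBDL_179.

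Adipocyte markers also differed, and adipose tissue is another place where Lcn2 is transcribed. Of 7 measured, 4 rose in CBDL against sham and 2 fell in norUDCA-fed CBDL against CBDL. The shares of all genes that did so were 10.3% and 3.20%. Adipoq, encoding the adipocyte hormone adiponectin, had 5.55, 6.31 and 6.53 in norUDCA-fed CBDL, 7.69, 7.52 and 7.62 in CBDL, and 5.82, 4.97 and 5.73 in sham. Its norUDCA-fed and sham arrays overlapped, unlike those of Lcn2. The summed signal of the 7 was 1234 to 2918 in norUDCA-fed CBDL, 1825 to 4959 in CBDL and 1093 to 1428 in sham. Of the 2 that fell, 0 kept their call without CBDL_164, 0 without norUDCA_CBDL_175 and 1 without norUDCA_CBDL_172. The part of macrophages or adipocytes in the Lcn2 signal was not tested. Of 5 urothelium markers 0 were called by limma in any comparison, with 2, 1 and 0 at an unadjusted p under 0.05 in CBDL against sham, norUDCA-fed CBDL against CBDL and norUDCA-fed CBDL against sham. Among all genes 21.8%, 6.80% and 3.18% were called in these comparisons.

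Proximal tubule markers moved opposite to Lcn2. Group means of all 37 markers of proximal tubule, limb and distal tubule, and collecting duct lay above the 5.2 bound in each group. So did those of the 5 urothelium markers, and passing this low bound does not check the labelled tissue. All 14 proximal tubule markers fell in CBDL against sham (median -1.37), 10 rose in norUDCA-fed CBDL against CBDL (median 1.04), and 0 were called in norUDCA-fed CBDL against sham. Among all genes 11.5% fell, 3.61% rose and 3.18% were called in these comparisons. Slc22a12, the urate transporter URAT1, changed by -2.11 and 1.40 in the first 2 of these (SE 0.18, adjusted p of 6.68e-05 and 0.00785). The summed signal of the 14 was 57995 to 60762 in norUDCA-fed CBDL, 22155 to 42625 in CBDL and 74213 to 78125 in sham. Of the 10 that rose under norUDCA, 1 kept its call without CBDL_164, 3 without norUDCA_CBDL_172, 2 without norUDCA_CBDL_175 and 3 without norUDCA_CBDL_179. Of the 14 that fell after ligation, Aqp1 lost its call without sham_158 (adjusted p = 0.0647).

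The distal segments are where lipocalin 2 is made in other models of kidney injury in mice. Of 11 markers of thick ascending limb or distal convoluted tubule, 6 fell in CBDL against sham (median -0.45) and 2 rose in norUDCA-fed CBDL against CBDL. The shares of all genes that did so were 11.5% and 3.61%. Egf, the epidermal growth factor made in distal tubule, fell by 1.85 in CBDL against sham (SE 0.37, adjusted p = 0.00582). Umod, encoding uromodulin of the thick ascending limb, averaged 12.78 in norUDCA-fed CBDL, 12.75 in CBDL and 12.51 in sham and was not called in any comparison. Of 12 collecting duct markers, 2 rose and 2 fell in CBDL against sham, beside 10.3% and 11.5% of all genes. In norUDCA-fed CBDL against CBDL 3 rose, beside 3.61%. Those that fell in CBDL against sham were Aqp3, a water channel (-1.39, SE 0.27, adjusted p = 0.00525), and Slc26a4, the anion exchanger pendrin (-1.26, SE 0.34, adjusted p = 0.0251). Aqp2, the water channel of principal cells, averaged 9.88 in norUDCA-fed CBDL, 9.05 in CBDL and 9.55 in sham and was not called in any comparison. Of the 2 limb and distal tubule markers that rose under norUDCA, Klhl3 kept its call without any 1 array and Slc12a3 lost it in all 9 such fits (adjusted p of 0.0521 to 0.145). In CBDL against sham, Slc12a3 lost its call without CBDL_165, any 1 sham array or any 1 norUDCA-fed array (0.0567 to 0.106). Of the 3 collecting duct markers that rose, 1 kept its call without CBDL_164 or norUDCA_CBDL_175 and 0 without norUDCA_CBDL_172 or norUDCA_CBDL_179, and Slc26a4 lost its call after ligation without any 1 sham array (0.0603 to 0.0724).

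**Figure D4:**
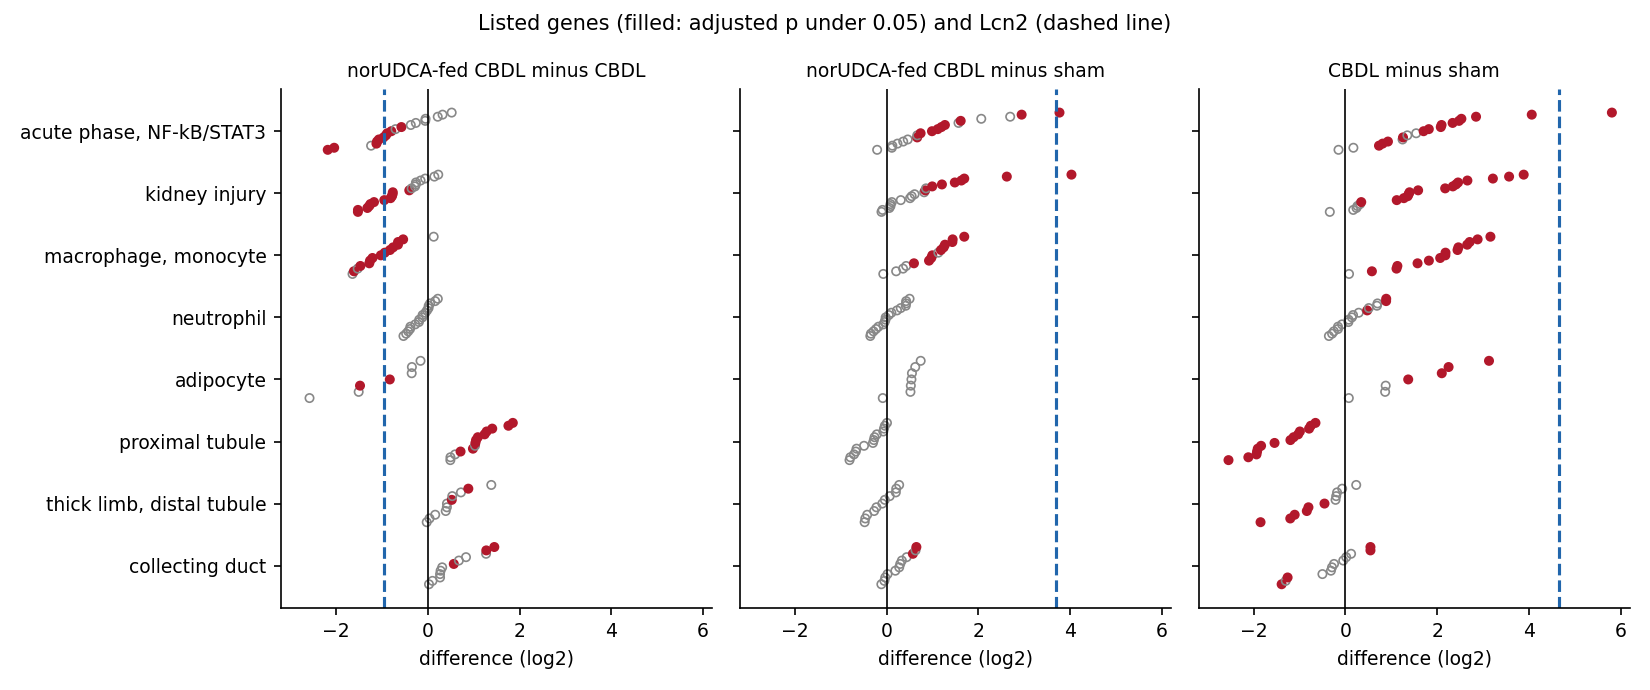
Differences in log2 signal (horizontal axis) of the measured genes of 8 lists, 1 point a gene and filled where adjusted p was under 0.05, for norUDCA-fed CBDL minus CBDL, norUDCA-fed CBDL minus sham and CBDL minus sham from left to right. The dashed line is Lcn2, at -0.97, 3.69 and 4.65; macrophage markers lie mostly on its side of 0 in each panel, proximal tubule markers on the other in the outer panels, and neutrophil markers around 0.

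The genes with the profile most like that of Lcn2 were found from the root mean square difference between log2 profiles over the 9 arrays, each centred on its own mean. The median of this difference over the other 22179 genes was 2.05. The closest were Timp1, an inhibitor of matrix metalloproteinases (0.551), Serpina10, an inhibitor of coagulation factor X (0.563), Krt20 (0.573), Gpc3, a membrane heparan sulfate proteoglycan (0.675), and Serpina3n (0.680). They were followed by Aldh1a2, which makes retinoic acid (0.782), Cfi, a protease that inactivates complement (0.819), Lox, which cross-links collagen (0.844), Ms4a4a, a membrane protein of macrophages (0.847), and Tnc, a matrix glycoprotein (0.865).

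These genes share with Lcn2 a large step after ligation, by the way they were chosen. In CBDL against sham they differed by 2.87 (Cfi) to 5.81 (Serpina3n), and in norUDCA-fed CBDL against CBDL by -0.15 (Cfi) to -2.06 (Tnc). Serpina10 had differences of 3.51 in CBDL against sham, -0.86 in norUDCA-fed CBDL against CBDL and 2.65 in norUDCA-fed CBDL against sham. When each profile was also divided by its own SD, so that size no longer counted, 2 of the 10 (Serpina10 at rank 2 and Krt20 at rank 10) stayed among the closest 10. Timp1 was then at rank 52, Serpina3n at 45 and Tnc at 501. Havcr1 was at rank 12 by the first measure and at 538 by the second.

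**Figure D5:**
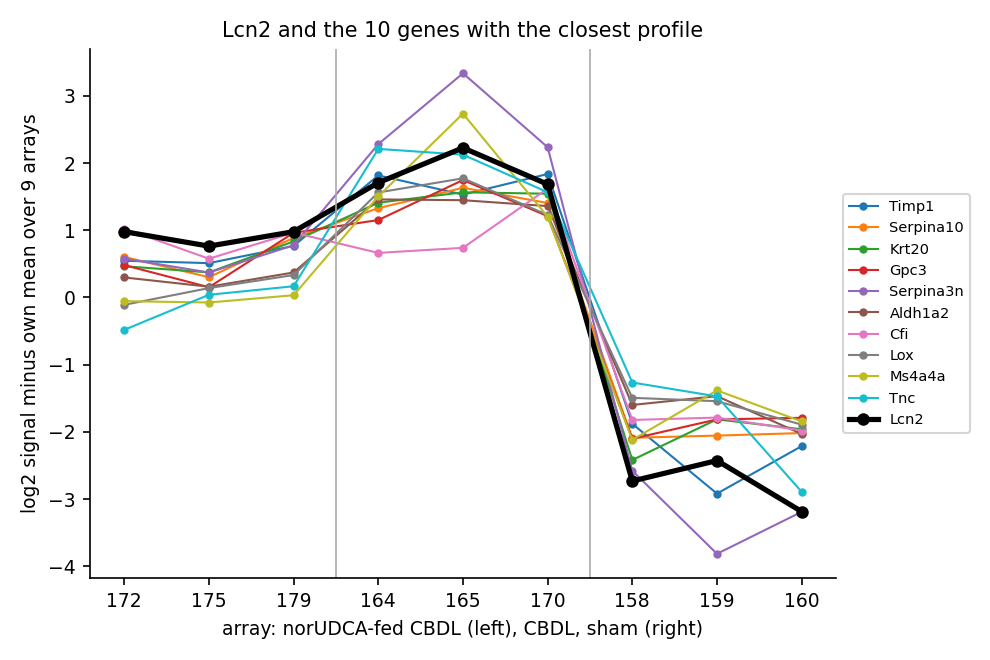
Log2 signal minus the gene's own mean over 9 arrays (vertical axis) for Lcn2 (thick black line) and the 10 genes with the closest profile, by array (horizontal axis) with norUDCA-fed CBDL at the left, CBDL in the middle and sham at the right. Lcn2 runs at 0.76 to 0.98 in norUDCA-fed CBDL, 1.68 to 2.23 in CBDL and -3.18 to -2.43 in sham; Serpina3n reaches higher in CBDL and Cfi does not step down in norUDCA-fed CBDL.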

How the data were processed

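Per the labels' protocols, TRIzol was used to isolate kidney RNA, which was labelled with biotin (Affymetrix WT PLUS). The deposited values are log2 signals that the authors normalized with RMA in Partek 6.6, per the submitters' processing notes; array model, annotation build and background step are not given in the sources used here. Of 41345 rows, 23521 carry 1 gene symbol in the platform annotation, 1814 several and 16010 none. Each gene took its brightest single-symbol row over the 9 arrays, leaving 22180 genes and 1341 unused rows; none was dropped for low signal.

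Differences were fitted with limma 3.58.1 (R 4.3.3) on all 9 arrays with 1 mean per group (6 residual and 3.77 prior degrees of freedom) and tested two-sided, with Benjamini-Hochberg adjustment over all genes. The fit was tested on simulated data. Alternatives changed the variance prior, weights, moderation, arrays in the fit, filter, scaling and row choice. The members, the 15 gene lists and the named genes were chosen with earlier results of these data known. The naming rule took a fixed set and up to 4 genes of lowest p per list and comparison. Esr1, Ly6c2 and genes named as exceptions or only for a lost call were chosen after their values were seen. Lcn16, Lcn17, Il36a, Nfkb1, Saa1, C3, Spp1, Trf, Ftl1, Cfd, Adrb3 and Krt5 have no single-symbol row and were not analysed here. Promoter and gene positions are RefSeq's on GRCm38.p6. Precision is limited by the 3 arrays a group; the median SE of a difference was 0.14.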

Additional observations from a re-analysis of the deposited data

How the results depend on the processing

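Lcn2 kept its direction in all 3 comparisons under each of the 19 other settings. For most of them this was fixed in advance. Its groups did not overlap, so leaving out arrays could not reverse a direction, and settings of the variance do not change the difference. Its difference in CBDL against sham stayed called under each of them (4.45 to 4.83), as did that in norUDCA-fed CBDL against sham (3.49 to 3.86). In norUDCA-fed CBDL against CBDL it was not called without moderation of variances (-0.97, adjusted p = 0.109) and with 5 of the 9 arrays left out in turn (-1.06 to -0.79 over the 9), which leaves fewer arrays. The exact p over 3 groups stayed at 0.00357 under 3 other scalings or row choices, which could hardly have moved it. Lcn2 has only 1 row, so the row choice left its values as they were. Array medians differed by less than the gaps between its groups. The number of genes called in norUDCA-fed CBDL against CBDL was 1509 as reported, 25 without moderation, 912 with only the 6 arrays compared, 749 without sham_159 and CBDL_165, and 278 to 2043 with 1 array left out. In norUDCA-fed CBDL against sham it was 706 as reported, 1638 with estimated array weights, 169 without moderation, and 156 to 822 with 1 array left out. In CBDL against sham it was 4844 as reported and stayed within 3657 to 5363. Counts of list members moved by over 1.5 times in 22 of 240 repeats for CBDL against sham, 82 of 180 for norUDCA-fed CBDL against CBDL and 47 of 160 for norUDCA-fed CBDL against sham. The causes were not tested. No paired analysis was possible because the groups share no replicate numbers. Signal over background is not given in the value table. Low signals, such as those of Ltf, the other granule genes, Il6, Il17a and Il22, may therefore be near background.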
